A study of Homo sapiens with 4 samples.

Results

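Liver-enriched transcription factors are the DNA-binding proteins that together switch on the genes of the hepatocyte, such as those for plasma proteins, gluconeogenic enzymes and apolipoproteins. None of them is found in hepatocytes alone. They act as a network, binding the promoters of one another and of shared target genes. Several of them, though not all, are often reduced in hepatocellular carcinoma (HCC) as cells lose hepatocyte features. The listed factors were HNF4A, FOXA1, FOXA2, FOXA3, CEBPA, PROX1, ONECUT1 and NR5A2, 8 genes listed by name with earlier results of these data known. Of these, 7 were measured, out of 19775 genes in the series, by 16 of the 54613 probe sets that are not array controls. The annotation used here names no probe set with HNF4A, which was therefore not analysed here.

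The arrays came from Huh7 and Hep3B, both established human HCC lines. In each line 1 array measured cells given 3 μM ATO, an arsenic compound, for 7 days, and 1 array measured the negative control cells given DMSO, 4 arrays in all. The question was how the 2 lines, for which the labels name no genetic change, responded to low-dose ATO. An expression value is the intensity of a probe set, a group of short probes for 1 transcript, on a linear scale with no fixed unit, so a level can be compared between arrays but not between genes. Each gene was read from its brightest probe set. There was 1 array per condition and line, so a ratio within a line has no error of its own, and the treatment was tested across the lines with limma on log2(intensity + 16), which left 1 residual degree of freedom. Where a mean log2 ratio is given with an SD, the lines are the n = 2.

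The arrays differed between the lines in markers that define liver cancer cells. ALB, the main plasma protein of hepatocytes, was at 358 in ATO Huh7 and 155 in negative control Huh7, and at 10730 in ATO Hep3B and 12803 in negative control Hep3B. AFP, the fetal counterpart of albumin, was at 62.1 and 91.8 in ATO and negative control Huh7, against 1646 and 3567 in ATO and negative control Hep3B. Huh7 cells are generally known to make both proteins, so the low values of the arrays labelled Huh7 stand out. RB1, which Hep3B is known to lack, was at 117 and 136 in ATO and negative control Huh7 and at 6.05 and 6.71 in ATO and negative control Hep3B (RB1 was looked up after values were seen). All 10 hepatocyte markers of a fixed list were above the median probe set of 17.3 on every array, and their summed intensity was 30120 in ATO Huh7, 33768 in negative control Huh7, 49201 in ATO Hep3B and 61120 in negative control Hep3B. Of 12 markers of stellate, endothelial and blood cells, 3 to 4 reached the median probe set on an array, with sums of 211 to 234. COL1A1 was the brightest of them, at 54.5 to 76.4, whereas the endothelial CDH5 and the leukocyte marker PTPRC stayed under the median probe set. Poly-A controls, spiked in ahead of labeling, differed between the ATO and the negative control array by a median log2 of -0.24 in Huh7 and -0.23 in Hep3B (27 probe sets), and hybridization controls by 0.07 and 0.10 (18 probe sets). Over all genes the median was 0.01 in Huh7 and 0.04 in Hep3B. The part of these differences in the results was not tested.

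Most of the factors were lower with ATO in both lines. The ratio of ATO over negative control was below 0.67 for 5 of the 7 in Huh7 (FOXA1, FOXA3, PROX1, ONECUT1 and NR5A2), where 3.25% of all genes were that low, and for PROX1 of the 7 in Hep3B, where 4.02% were. PROX1 was the 1 factor below 0.67 in both lines, as were 0.587% of all genes. With a gene's probe sets averaged instead, FOXA1 and NR5A2 were below 0.67 in both lines and PROX1 was not. The NR5A2 average includes the probe set 1560469_at, which was under the median probe set on every array. Its Hep3B ratio was 0.345 (4.95 over 14.4), against 0.885, 0.647 and 0.849 for the other NR5A2 probe sets. The FOXA1 average includes 237086_at, which was under the median probe set on the Huh7 arrays. No factor was above 1.5 in either line, where 3.21% of all genes in Huh7, 5.04% in Hep3B and 0.804% in both lines were. At any size, 6 of the 7 were lower in both lines, against 24.7% of all genes. All 7 were brighter than the median probe set, and among the 12726 genes that bright, the shares below 0.67 were 4.16% in Huh7, 5.45% in Hep3B and 0.896% in both, and 26.2% were lower in both at any size. The median log2 ratio of the factors was -0.83 in Huh7 and -0.40 in Hep3B, a difference between the lines that was not tested. FOXA1 lay closest to the threshold on both sides, at 0.650 in Huh7 and 0.702 in Hep3B.

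**Figure D1:**
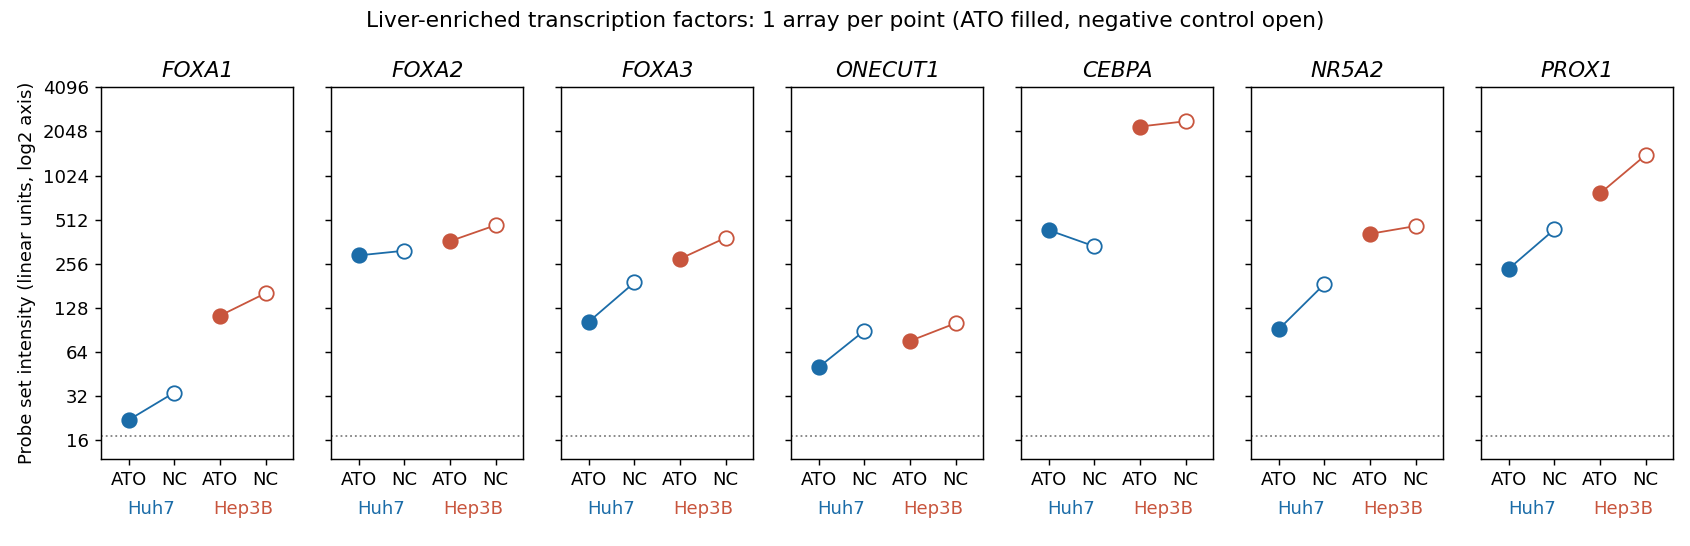
Intensity of the probe set that represents each factor (log2 axis) on the 4 arrays, 1 point per array, with ATO filled and left of the open negative control (NC), and Huh7 left of Hep3B. The dotted line is the median probe set. The ATO point is the lower of each pair except for CEBPA in Huh7, and the Hep3B pair lies above the Huh7 pair for all factors but ONECUT1, whose pairs overlap.

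No single factor passed the test across the lines. Limma called 0% of all genes for ATO at an adjusted p of 0.05 (Benjamini-Hochberg over 19775 genes), and at an unadjusted p under 0.05 it gave 4 of the 7 factors as lower, against 4.30% of all genes lower and 1036 genes higher. These 4 were PROX1, FOXA1, FOXA3 and ONECUT1, each with an adjusted p of 0.506. The values below are therefore given as levels and ratios, not as called changes.

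Upstream sequences are shown for FOXA1, FOXA3 and NR5A2, which were below 0.67 in Huh7, and for CEBPA, which was not. Each is the 250 bases before a transcription start in RefSeq (GRCh38.p14), written 5′ to 3′ on the gene's strand. PROX1 and ONECUT1 were also below 0.67 in Huh7. PROX1 and FOXA2 had no entry, and ONECUT1 (chr15:52790337-52790586, minus strand) held none of the motifs and is not printed. The motifs searched on both strands were TGTTTAC and TGTTTGC for FOXA proteins, TTGCGCAA for CEBP proteins, ATCAATA for ONECUT proteins, CAAGGTCA for NR5A2, CAAAGTCCA for HNF4A and TATAAA for the TATA box, and no 2 matches overlap. The capitals mark the matches.
FOXA1 (chr14:37595250-37595499, minus strand): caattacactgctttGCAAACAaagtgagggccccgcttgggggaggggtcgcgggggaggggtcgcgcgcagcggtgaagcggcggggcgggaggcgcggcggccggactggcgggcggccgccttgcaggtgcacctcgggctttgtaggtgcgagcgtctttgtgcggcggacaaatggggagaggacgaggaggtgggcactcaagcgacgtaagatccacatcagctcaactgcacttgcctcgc
FOXA3 (chr19:45864076-45864325, plus strand): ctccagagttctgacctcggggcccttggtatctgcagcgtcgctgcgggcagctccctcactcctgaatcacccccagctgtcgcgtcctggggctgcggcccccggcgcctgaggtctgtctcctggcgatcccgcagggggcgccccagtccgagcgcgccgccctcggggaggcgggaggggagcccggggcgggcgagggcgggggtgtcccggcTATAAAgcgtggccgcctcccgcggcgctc
NR5A2, downstream start (chr1:200042341-200042590, plus strand): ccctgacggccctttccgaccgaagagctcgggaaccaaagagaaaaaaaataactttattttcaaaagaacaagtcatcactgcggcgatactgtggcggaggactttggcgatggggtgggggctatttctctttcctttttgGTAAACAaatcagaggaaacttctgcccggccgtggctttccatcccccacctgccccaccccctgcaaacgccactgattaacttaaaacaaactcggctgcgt
CEBPA (chr19:33302535-33302784, minus strand): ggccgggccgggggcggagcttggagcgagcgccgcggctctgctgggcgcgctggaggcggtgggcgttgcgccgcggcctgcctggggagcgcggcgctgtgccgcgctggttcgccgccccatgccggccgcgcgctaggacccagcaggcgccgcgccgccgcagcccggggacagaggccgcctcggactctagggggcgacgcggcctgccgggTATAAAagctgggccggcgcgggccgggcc
The FOXA1 window holds GCAAACA, the reverse complement of TGTTTGC, at bases -235 to -229 from the start, and the NR5A2 window holds GTAAACA, the reverse complement of TGTTTAC, at bases -105 to -99. FOXA3 and CEBPA each hold TATAAA at bases -30 to -25. Among 35097 windows of this length, 3.23% held TGTTTGC, 2.98% TGTTTAC and 10.7% TATAAA. TTGCGCAA, in 0.131% of all windows, ATCAATA, in 1.55%, CAAGGTCA, in 1.15%, and CAAAGTCCA, in 0.325%, had no match in the 6 windows of the measured factors. The other NR5A2 window (chr1:200027460-200027709, plus strand), which is not printed, held TTTATA, the reverse complement of TATAAA, and no FOXA motif. The windows ranged from 36% GC for this NR5A2 start to 81.2% for CEBPA, with a median of 58% over all windows.

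The FOXA proteins are pioneer factors that open closed chromatin in the early endoderm and at liver enhancers. FOXA1 (chr14:37589552-37595249, GRCh38) was at 22.1 in ATO Huh7 and 33.9 in negative control Huh7, and at 113 in ATO Hep3B and 162 in negative control Hep3B. Both Huh7 values were close to the median probe set, and both were below the Hep3B values. The Huh7 ratio was 0.650 and the Hep3B ratio 0.702. On the log2 scale they averaged -0.57 ± 0.08 (SD, n = 2), and limma gave a difference of -0.42 (unadjusted p = 0.009, adjusted p = 0.506). Its second probe set, 237086_at, was at 5.83 and 8.88 in ATO and negative control Huh7, both under the median probe set, and at 43.4 and 126 in ATO and negative control Hep3B. Its Hep3B ratio of 0.345 was well under the 0.702 of the brighter probe set.

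FOXA3 (chr19:45864326-45873797), which in mice helps to keep blood glucose up during fasting, was at 103 in ATO Huh7 and 191 in negative control Huh7. In Hep3B it was at 277 with ATO and 386 in the negative control. Both Huh7 values lay below both Hep3B values, and the ratio was 0.540 for Huh7 and 0.719 for Hep3B. The mean log2 ratio was -0.68 ± 0.29 (SD, n = 2), and limma gave -0.63 (unadjusted p = 0.016, adjusted p = 0.506).

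FOXA2 (chr20:22580998-22585490), which in mice is needed for bile acid homeostasis, was at 292 in ATO Huh7 and 315 in negative control Huh7, and at 366 in ATO Hep3B and 470 in negative control Hep3B. It had the smallest shortfall of the 3 FOXA genes in Huh7, with a ratio of 0.929, and its Hep3B ratio was 0.778. Limma gave -0.22 (unadjusted p = 0.108, adjusted p = 0.584). A second probe set, 210103_s_at, had ratios of 0.834 and 0.870 in Huh7 and Hep3B, and 214312_at lay under the median probe set on all arrays and had ratios of 1.15 and 1.17.

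ONECUT1 (chr15:52755053-52790336), or HNF6, a factor of bile duct formation and of glucose metabolism, was at 50.5 in ATO Huh7 and 89.6 in negative control Huh7, and at 76.3 in ATO Hep3B and 101 in negative control Hep3B. It was the only measured factor whose lines overlapped, since the negative control of Huh7 lay above the ATO array of Hep3B. The ratios were 0.564 in Huh7 and 0.757 in Hep3B, the mean log2 ratio was -0.61 ± 0.30 (SD, n = 2), and limma gave -0.50 (unadjusted p = 0.026, adjusted p = 0.506).

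CEBPA (chr19:33299934-33302534), a bZIP factor that restrains proliferation and drives metabolic genes in mature hepatocytes, was the exception. It was at 434 in ATO Huh7 and 337 in negative control Huh7, and at 2214 in ATO Hep3B and 2405 in negative control Hep3B. Its ratio was 1.29 in Huh7 and 0.920 in Hep3B, so the lines went opposite ways by amounts inside the thresholds. Limma gave 0.12 (unadjusted p = 0.506, adjusted p = 0.891). CEBPB, the related factor of the acute-phase response, was at 2132 in ATO Huh7 and 1513 in negative control Huh7, and at 1011 in ATO Hep3B and 429 in negative control Hep3B. Its ratios were 1.41 in Huh7 and 2.36 in Hep3B, with an adjusted p of 0.506 from limma.

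NR5A2 (chr1:200027710-200177415), or LRH-1, a nuclear receptor of bile acid and cholesterol genes, was at 91.7 in ATO Huh7 and 187 in negative control Huh7, and at 410 in ATO Hep3B and 464 in negative control Hep3B. This was the lowest ratio of the 7 factors in Huh7, 0.492, beside 0.885 in Hep3B. Limma gave -0.54 (unadjusted p = 0.106, adjusted p = 0.582), and the mean log2 ratio of -0.60 ± 0.60 (SD, n = 2) had the widest spread between the lines. The probe set 208343_s_at was below 0.67 in both lines, with 0.450 in Huh7 and 0.647 in Hep3B, and 208337_s_at had 0.558 and 0.849. The fourth, 1560469_at, was under the median probe set on every array.

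PROX1 (chr1:213983151-214041510), a homeobox factor of liver progenitors and hepatocytes that can repress NR5A2 activity, was at 237 in ATO Huh7 and 440 in negative control Huh7, and at 775 in ATO Hep3B and 1416 in negative control Hep3B. Every Huh7 value lay below every Hep3B value, and the ATO array was the lower in both lines. The ratios, 0.539 for Huh7 and 0.547 for Hep3B, were the closest pair of any factor and averaged -0.88 ± 0.01 on the log2 scale (SD, n = 2). Limma gave -0.85 (unadjusted p = 0.001, adjusted p = 0.506). Of its other probe sets, 228656_at was also below 0.67 in both lines, with 0.462 in Huh7 and 0.336 in Hep3B, and 207401_at had 0.596 and 0.827. The probe set 242119_at differed from these. It was at 81.9 in ATO Huh7 and 108 in negative control Huh7, a ratio of 0.758, and at 180 in ATO Hep3B and 116 in negative control Hep3B, a ratio of 1.55.

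Over all 16 probe sets, 14 were lower with ATO in Huh7 and 14 in Hep3B, against 47.3% and 45.8% of all probe sets. Below 0.67 were 10 in Huh7, where 2.81% of all probe sets were, and 5 in Hep3B, where 4.01% were. In both lines 4 were below 0.67, against 0.522% of all probe sets. The 5 in Hep3B include the dim 1560469_at of NR5A2. The 4 in both lines include 237086_at of FOXA1, which was under the median probe set in Huh7. Of the 16, 14 had a mean above the median probe set, and the shares among only such probe sets were not computed. Probe sets of 1 gene share their target and are not replicates. The median log2 ratio of the 16 was -0.68 in Huh7 and -0.38 in Hep3B, against 0.02 for all probe sets in both lines.

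**Figure D2:**
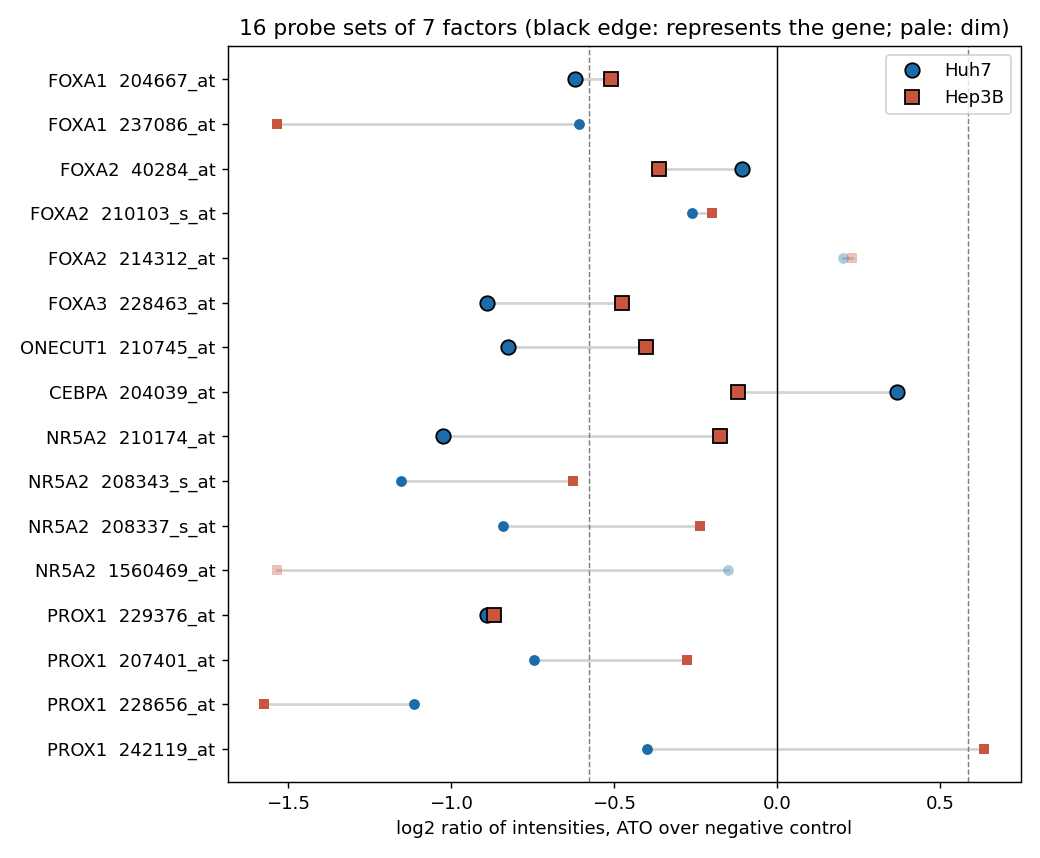
Log2 of the ATO over negative control ratio (x axis) for the 16 probe sets of the 7 factors, with circles for Huh7 and squares for Hep3B. Black edges mark the probe set that represents the gene, pale symbols are probe sets with a mean under the median probe set, and dashed lines are ratios of 0.67 and 1.5. The 1 symbol right of 1.5 is 242119_at of PROX1 in Hep3B, at a ratio of 1.55.

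**Figure D3:**
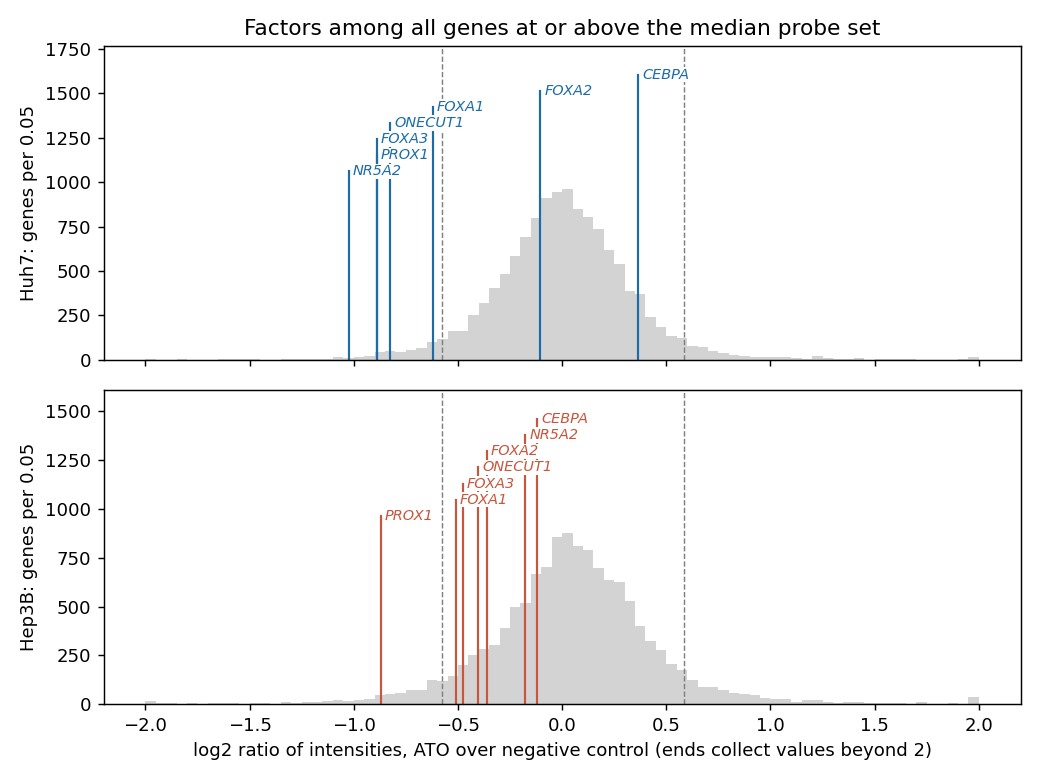
Distribution of the log2 ratio, ATO over negative control, of the 12726 genes not under the median probe set (grey, counts per bin of 0.05 on the y axis), in Huh7 above and Hep3B below, with the 7 factors as coloured lines whose heights carry no value. In Huh7, 5 factors lie left of the dashed line at a ratio of 0.67, and in Hep3B PROX1 does.

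Between the lines, most of the factors were lower in Huh7. In the negative control, Huh7 was at or below 0.5 of Hep3B for 5 of the 7 (FOXA1, FOXA3, CEBPA, PROX1 and NR5A2), against 8.73% of all genes and 12.5% of the brighter 12726. With ATO it was so for the same 5, against 8.61% of all genes. Both Huh7 arrays lay below both Hep3B arrays for 6 of the 7, against 28.5% of all genes. The median log2 gap, Huh7 over Hep3B, was -1.71 between ATO arrays and -1.31 between negative controls, beside 0.03 and 0.04 for all genes. Limma, with the treatments as the replicates of a line, called these 5 as lower in Huh7, as it did 12.2% of all genes, while another 12.2% were called higher. Without the treatment term 2 of these calls were left, FOXA3, PROX1 and NR5A2 being lost, and the methods' t-test after Benjamini-Hochberg left 0.

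By the brightest probe sets, CEBPA had the widest gap in the negative control and FOXA1 with ATO. For CEBPA, Huh7 was below Hep3B by 5.10-fold with ATO and 7.14-fold in the negative control (limma difference -2.54, adjusted p = 0.015). FOXA1 was lower in Huh7 by 5.14-fold with ATO and 4.76-fold in the negative control (-1.80, adjusted p = 0.012), and PROX1 by 3.27-fold and 3.22-fold (-1.65, adjusted p = 0.012). By these probe sets the PROX1 and FOXA1 gaps were nearly the same size with ATO as in the negative control, but by their other probe sets they were not. For FOXA1, 237086_at had a gap of 7.44-fold with ATO and 14.1-fold in the negative control. Its Huh7 values, 5.83 with ATO and 8.88 in the negative control, lay under the median probe set, so the sizes of these gaps are uncertain. For PROX1, 228656_at had 2.94-fold with ATO and 4.05-fold in the negative control. The gap was larger with ATO for 207401_at (2.75-fold and 1.98-fold) and 242119_at (2.20-fold and 1.07-fold). NR5A2 was lower in Huh7 by 4.47-fold with ATO and 2.49-fold in the negative control (-1.61, adjusted p = 0.037). Its probe set 208343_s_at had gaps of 2.58-fold with ATO and 1.79-fold in the negative control, and 208337_s_at had 2.57-fold and 1.69-fold. The dim 1560469_at had 1.33-fold and 3.48-fold. FOXA3 was lower in Huh7 by 2.69-fold and 2.02-fold (-1.13, adjusted p = 0.025). FOXA3 in the negative control lay just past the 2-fold threshold. FOXA2 was lower in Huh7 by 1.25-fold with ATO and 1.49-fold in the negative control (-0.43, adjusted p = 0.078), and ONECUT1 by 1.51-fold and 1.12-fold (-0.31, adjusted p = 0.188). Whether these gaps differ between ATO and negative control could not be tested with 1 array each.

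**Figure D4:**
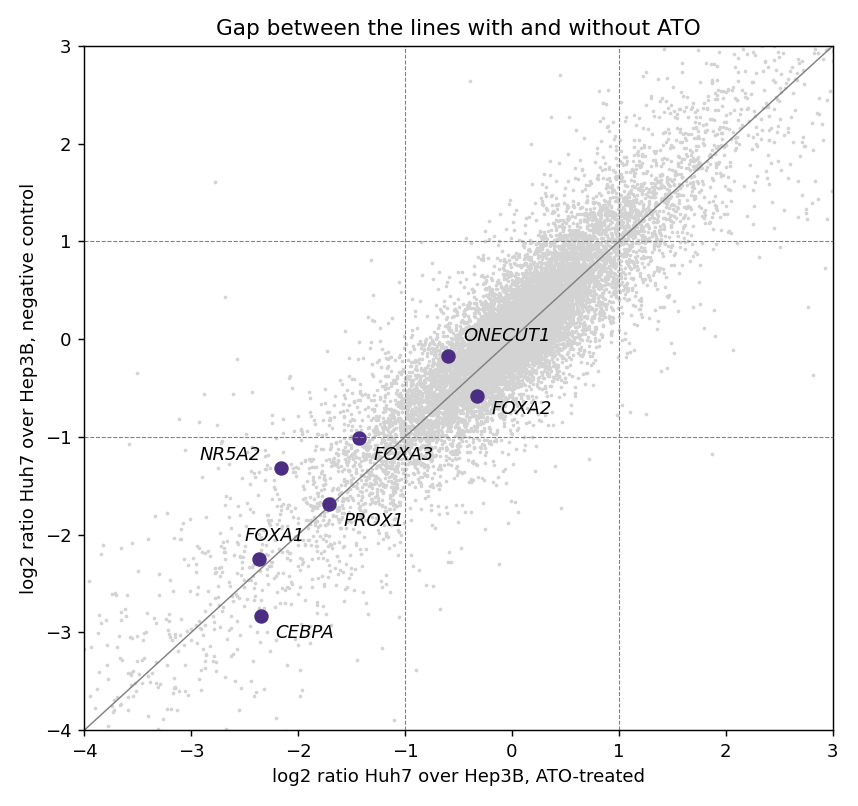
Log2 ratio of Huh7 over Hep3B with ATO (x axis) and in the negative control (y axis), for genes not under the median probe set (grey, 1 point per gene, the axes leaving out the most extreme) and the 7 factors (purple). Dashed lines are 2-fold gaps and the diagonal marks equal gaps. The 5 factors with a gap of at least 2-fold lie in the lower left, and NR5A2 lies furthest above the diagonal.

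Of 25 other transcription factors of the liver, 23 were measured, and their log2 ratios had a median of -0.12 (Huh7) and -0.07 (Hep3B). In Huh7, TBX3 was above 1.5 and DBP and TEF were below 0.67. In Hep3B, CEBPB and ATF5 were above 1.5 and TEF was below 0.67. The shares of all genes were 3.21% above and 3.25% below in Huh7, and 5.04% above and 4.02% below in Hep3B. TEF, a PAR bZIP factor of the circadian output, was at 49.2 in ATO Huh7 and 80.1 in negative control Huh7, and at 87.5 in ATO Hep3B and 154 in negative control Hep3B. Its ratios were 0.614 in Huh7 and 0.569 in Hep3B. TEF was the 1 factor of this list below 0.67 in both, as were 0.587% of all genes. DBP, its close relative, was at 0.548 in Huh7 and 0.955 in Hep3B. TBX3, a transcriptional repressor that acts in hepatoblasts, was just past the threshold in Huh7 and at 0.962 in Hep3B. ATF5, a stress-response factor abundant in liver, was at 1.02 and 1.95. The gap between the lines went both ways in this list. GATA6, a partner of the FOXA proteins in the endoderm, was at 9.71 and 13.9 in ATO and negative control Huh7, against 105 and 134 in ATO and negative control Hep3B. ONECUT2, the paralog of ONECUT1, was at 70.5 and 76.4 in ATO and negative control Huh7, against 336 and 370 in ATO and negative control Hep3B, with ratios of 0.923 and 0.907 for ATO over negative control in Huh7 and Hep3B. HLF, also a PAR bZIP factor, was higher in Huh7, at 159 with ATO and 217 in the negative control, against 34.8 and 42.5 in ATO and negative control Hep3B.

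Nuclear receptors and coregulators that work with these factors were measured for 20 of 26 listed genes. In Huh7 the 1 gene below 0.67 was the dim PPARGC1B, where 3.25% of all genes were that low. In Hep3B 6 were (NR0B2, NR2F1, RORA, NRIP1, CREBBP and EP300), where 4.02% of all genes were. None was above 1.5, and the list's median was -0.21 (Huh7) and -0.14 (Hep3B) on the log2 scale. The acetyltransferases CREBBP and EP300, coactivators of many liver factors, had Huh7 ratios of 0.911 and 0.809 and Hep3B ratios of 0.530 and 0.520. NR0B2, or SHP, the bile acid-induced repressor that binds NR5A2, was at 78.1 and 96.6 in ATO and negative control Huh7 and at 488 and 758 in ATO and negative control Hep3B, with ratios of 0.809 and 0.644. NR2F1, an orphan receptor, and RORA, a receptor of circadian and lipid genes, were under the median probe set in Huh7, at 4.95 and 5.99 for NR2F1 and 6.34 and 5.60 for RORA in ATO and negative control cells. In Hep3B NR2F1 was at 135 in ATO cells and 335 in negative control cells, and RORA was at 105 and 178.

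Target genes of the factors did not shift as one. For HNF4A targets (22 of 28 measured) the median log2 ratio was 0.03 in Huh7 and -0.10 in Hep3B, with 2 above 1.5 and 2 below 0.67 in Huh7 and none above and 3 below in Hep3B. For FOXA targets (13 of 13) it was -0.35 and -0.25, with 1 above and 2 below in Huh7 and 1 above and 4 below in Hep3B. For CEBPA targets (12 of 13) it was -0.17 and 0.12, with 1 above and 2 below in Huh7 and none above and 1 below in Hep3B. For NR5A2 targets (11 of 12) it was -0.05 and -0.32, with none above and 1 below in Huh7 and none above and 4 below in Hep3B, and 6 of the 11 were dim. Of all genes, 3.21% were above 1.5 and 3.25% below 0.67 in Huh7, and 5.04% were above and 4.02% below in Hep3B. The lists share genes, so their counts are not independent of each other, and limma called none of their members for ATO.

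G6PC1 and PCK1, the enzymes that release and build glucose in the liver and targets of several of the factors, had the lowest Huh7 ratios of these lists. G6PC1 was at 20.1 in ATO Huh7 and 213 in negative control Huh7, a ratio of 0.094, and at 3.67 and 2.51 in ATO and negative control Hep3B, far under the median probe set. PCK1 was at 109 in ATO Huh7 and 243 in negative control Huh7, a ratio of 0.451, and at 10.1 and 7.22 in ATO and negative control Hep3B. Both enzymes were thus measured above the median probe set in Huh7 alone. APOM, an HDL apolipoprotein and NR5A2 target, was at 714 in ATO Huh7 and 1544 in negative control Huh7, and at 612 in ATO Hep3B and 1043 in negative control Hep3B. It was the 1 target gene below 0.67 in both lines, as were 0.587% of all genes. Its ratio was 0.462 in Huh7 and 0.587 in Hep3B (limma -0.92, adjusted p = 0.506). AFP, shared by the FOXA and NR5A2 lists, had ratios of 0.677 and 0.462, and IGFBP1, an insulin- and FOXA-controlled binding protein, 0.757 and 0.415. ALB went opposite ways, at 2.31 in Huh7 and 0.838 in Hep3B, as did APOC3, with 2.22 and 0.547 (APOC3 was named after its values were seen). CPS1, the first enzyme of the urea cycle, was at 1621 and 2064 in ATO and negative control Huh7, against 42.6 and 39.0 in ATO and negative control Hep3B, and TTR, the thyroid hormone carrier, was at 32.8 and 48.1 in ATO and negative control Huh7, against 1983 and 1704 in ATO and negative control Hep3B.

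**Figure D5:**
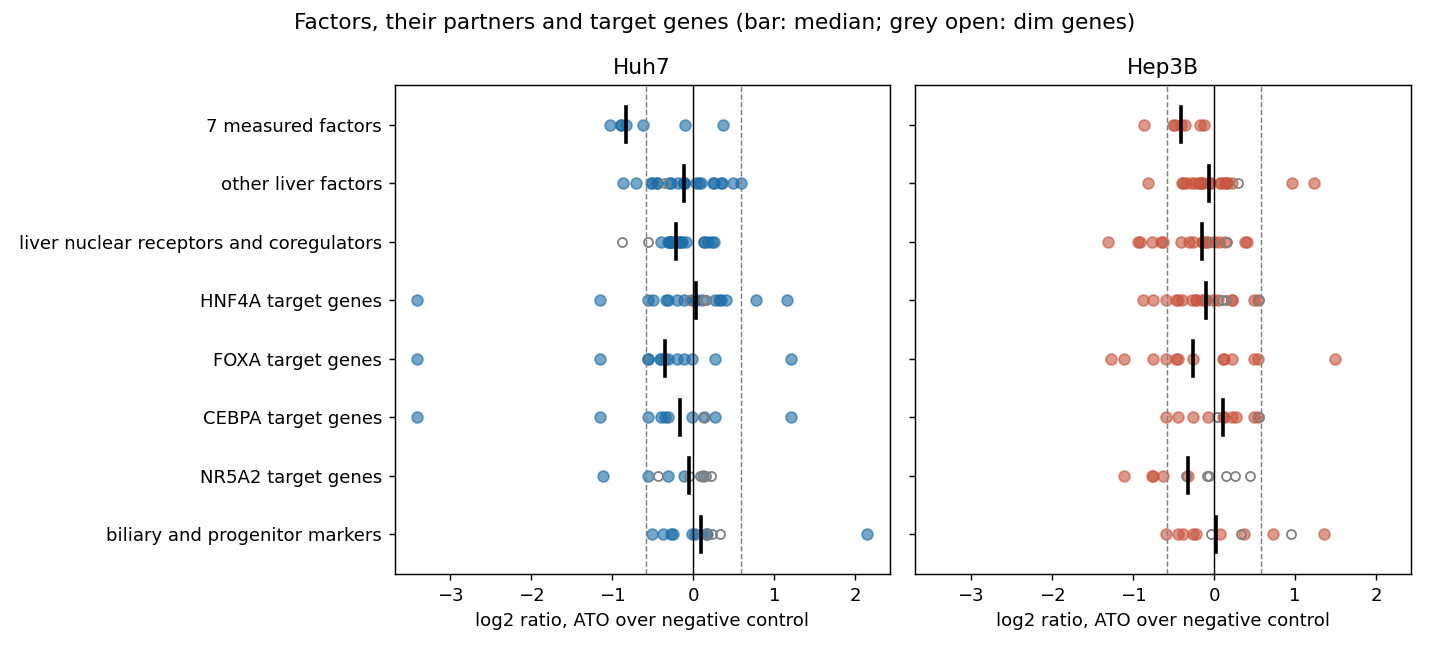
ATO over negative control on the log2 scale for each measured gene of the factor list and of 7 related lists, in Huh7 on the left and Hep3B on the right. Black bars are list medians, grey open circles are genes with a mean under the median probe set, and dashed lines are ratios of 0.67 and 1.5. The factors have the lowest median in both panels, at -0.83 and -0.40. Factors and lists were chosen with earlier results of these data known, so this order is a description only. The point far left in 3 of the Huh7 target rows is G6PC1.

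Markers of the bile duct and of liver progenitors, the other fate of the hepatoblast, were measured for 12 of 14 genes. KRT7, a keratin of bile ducts, was at 164 in ATO Huh7 and 37.1 in negative control Huh7, and at 70.9 in ATO Hep3B and 27.8 in negative control Hep3B. Its ratios were 4.42 and 2.55, with an adjusted p of 0.506 from limma. It was the 1 gene of the list above 1.5 in both lines, as were 0.804% of all genes. KRT19, also a keratin of bile ducts, was at 6.25 and 5.53 in ATO and negative control Huh7 and 1251 and 1185 in ATO and negative control Hep3B. SOX4, EPCAM and CD24, all linked to progenitor-like HCC cells, had Huh7 ratios of 0.774, 0.828 and 0.701 and Hep3B ratios of 0.663, 0.737 and 0.768. PROM1, which encodes the stem cell marker CD133, had a Huh7 ratio of 0.989 and a Hep3B ratio of 1.29, and for SPP1, or osteopontin, they were 1.12 and 1.66. Of the 12 genes, 4 were lower and 5 higher in both lines at any size, against 4887 and 6332 of all 19775 genes. In Hep3B 3 were above 1.5 (KRT7, SPP1 and the dim CFTR), against 5.04% of all genes. SOX4 was below 0.67 there, against 4.02% of all genes. The list's median log2 ratio was 0.09 for Huh7 and 0.02 for Hep3B.

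The genes whose profile over the 4 arrays was most like that of a factor were found by the Euclidean distance of centred log2 values, which over 4 arrays is a description only. ITIH2, an inter-alpha-trypsin inhibitor chain of plasma, was nearest to FOXA1 (distance 0.05), followed by PPP1R9A and GALC. SLC16A10, an aromatic amino acid transporter, was nearest to FOXA3 (0.04), followed by NTS and SQLE. CENPU, PDGFA and VWCE were nearest to CEBPA (0.13 for CENPU), RUSC1-AS1, CCNE2 and ZHX2 to PROX1 (0.14 for RUSC1-AS1), and CHST13, TAF7 and DUSP9 to NR5A2 (0.21 for CHST13). ZHX2, a repressor of AFP in mice, was at 109 and 172 in ATO and negative control Huh7 and at 336 and 616 in ATO and negative control Hep3B. FOXA2 and ONECUT1 spanned less than 2-fold over the arrays and were not searched.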

How the data were processed

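Total RNA was measured on 4 Affymetrix U133 Plus 2.0 arrays. The authors preprocessed the arrays by RMA with log transformation and quartile normalization in simpleaffy. What they deposited is a linear-scale intensity for each probe set, and the return from the log scale is not given in the sources used here. Nor is it given if arrays were averaged into a column, and each column is taken as 1 array. Array medians lay between 15.8 and 16.3. The number of arrays, 1 per condition and line, limits the precision, and no p-value measures spread between cultures of 1 line.

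From the annotation of the platform, 41091 probe sets without array controls had 1 gene symbol, and the brightest of a gene over the 4 arrays represented it. Thresholds of 1.5 and 0.67 for ATO over negative control are those the study states for its array comparison. A dim gene or probe set has a mean below the median probe set of 17.3, since no detection call was used. Limma 3.58.1 (R 4.3.3) was fitted to log2(intensity + 16) with line and treatment, the prior having 1.81 degrees of freedom, with Benjamini-Hochberg adjustment across all genes. The steps were tested on simulated data. Tables and figures were made in Python 3.11.15.

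Members and gene lists were chosen with earlier results of these data known. Named beyond the members were, in each list, genes past the thresholds in both lines, the 3 highest and 3 lowest by mean log2 ratio and the 2 highest and 2 lowest by line gap, among genes that were not dim, and the 3 nearest profiles of each factor spanning at least 2-fold. Not all genes that the rule allows are described. NRIP1, PPARGC1B, CFTR, APOC3, RB1, CDH5 and PTPRC were added to the named genes once values had been seen. Genes with no probe set named in the annotation were not analysed here. Alternatives covered the gene summary, normalization, offset, dim genes, thresholds and the model.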

Additional observations from a re-analysis of the deposited data

Results flagged for a closer look

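CEBPA was the 1 factor whose ratio of ATO over negative control lay on opposite sides of 1 in the lines, at 1.29 in Huh7 and 0.920 in Hep3B. The probe set 242119_at of PROX1 did the same in the other direction, at 0.758 in Huh7 and 1.55 in Hep3B, while the other 3 PROX1 probe sets were lower in both lines. FGA, the fibrinogen alpha chain of the hepatocyte markers, was at 0.639 in Huh7 and 3.04 in Hep3B. These differences between the lines were not tested, since each line had 1 array per condition.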

How the results depend on the processing

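Of the factors, CEBPA alone changed sign with a line left out, its mean log2 ratio of 0.12 being 0.37 in Huh7 and -0.12 in Hep3B. None of the 7 was called for ATO in any of them (77 of 77 comparisons). The adjusted p of PROX1 for ATO was 0.148 at its lowest. With a gene's probe sets averaged, 182 genes, against 275, were past the thresholds in both lines. The factors below 0.67 in Hep3B and in both lines were then 2 instead of 1. They were FOXA1 and NR5A2, while PROX1 was no longer below 0.67 in Hep3B. The NR5A2 average includes the dim 1560469_at, with a Hep3B ratio of 0.345. With thresholds of 2 and 0.5, 55 genes were past them in both lines, and 1 factor was below in Huh7, 0 in Hep3B and 0 in both. For ATO, limma called 8 genes with an offset of 0, 3 with dim genes left out and 9 with an intensity trend, against 0, and the methods' t-test gave 127 at an unadjusted p under 0.01. For the lines, 4806 genes were called by limma, 1665 by the t-test at an unadjusted p under 0.01 and 14 by it after Benjamini-Hochberg. Of the 5 factors called between the lines, 2 were left in limma without the treatment term (FOXA3, PROX1 and NR5A2 lost) and 0 by the t-test after Benjamini-Hochberg, and NR5A2 was lost with an offset of 32 (adjusted p = 0.058, with 9.2e-04 to 0.237 over its alternatives). With thresholds of 1.5 and 0.67, 6402 genes, against 3553, were past the line gap. With quantile normalization, Huh7 was at or below 0.5 of Hep3B in the negative control for 4 factors, against 5. The cause of these shifts was not tested.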
